A study of Mus musculus with 3 samples.

Results

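The microRNA genes measured in ureteric bud cells of the early mouse kidney are described here. Members were chosen by gene symbol, from probe sets that carry 1 gene symbol beginning with Mir and a number, or with Mirlet7, leaving out host gene symbols that end in hg. No measured value entered that rule, but the group was proposed with results of these data in view, so its levels are given as a description. It held 296 genes, measured by 298 probe sets, of 19938 genes with a symbol of their own in the table. The only gene with more than 1 probe set was Mir713, whose probe sets were averaged. The signal of such a probe set reflects the precursor transcript, from which the hairpin is cut, and not the mature microRNA.

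Cells came from embryos of the CD-1 strain at 10.5 days post coitum, Theiler stage 18, that carried the transgene Tg(Hoxb7-EGFP)33Cos, in which a Hoxb7 promoter drives green fluorescent protein in the Wolffian duct and the ureteric bud that grows from it. There was 1 group of 3 Affymetrix arrays, labelled ureteric tip, with no treated, mutant or other comparison group. Each array held the sorted cells of 1 bud, not pooled, of unknown sex. The buds were dissected and dissociated with trypsin before sorting by fluorescence, and total RNA went through 1 round of whole-transcript amplification.

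A microRNA gene is transcribed as a long primary transcript, often inside a host gene or together with neighbouring microRNAs. Drosha and Dgcr8 cut out the hairpin, Xpo5 carries it to the cytoplasm, and Dicer1 trims it to a short duplex, of which 1 strand guides an Argonaute protein to messenger RNAs that pair with its seed, bases 2 to 8. Loss of Dicer1 in the ureteric bud lineage of mice disturbs branching and leads to cystic kidneys.

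The sequences below show which genes make guides of the same seed, since genes that share a seed were in several cases on opposite sides of the background level. RefSeq sequences (GRCm38.p6) were listed for 258 of the 296 genes. In each mature sequence, written 5′ to 3′, the seed is in capitals. One set is from the let-7 family, known as a brake on Lin28 and on growth of immature cells.
let-7i-5p (Mirlet7i): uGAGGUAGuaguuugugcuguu
let-7f-5p (Mirlet7f-1): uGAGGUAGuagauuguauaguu
let-7e-5p (Mirlet7e): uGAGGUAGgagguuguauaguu
miR-98-5p (Mir98): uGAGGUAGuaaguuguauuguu

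Another set shares the seed of miR-25 and miR-92.
miR-25-3p (Mir25): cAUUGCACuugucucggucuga
miR-92b-3p (Mir92b): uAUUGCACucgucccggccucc
miR-92a-3p (Mir92-2): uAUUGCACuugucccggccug
miR-363-3p (Mir363): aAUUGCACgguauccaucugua
miR-32-5p (Mir32): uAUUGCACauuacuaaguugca

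A further set has the seed of miR-17 and holds 2 genes that lie beside Mir25 in the same host gene.
miR-17-5p (Mir17): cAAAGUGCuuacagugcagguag
miR-20a-5p (Mir20a): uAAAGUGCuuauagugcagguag
miR-93-5p (Mir93): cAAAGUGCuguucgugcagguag
miR-106b-5p (Mir106b): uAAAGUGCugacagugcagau

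Also shown is the miR-200 family, known as a guard of the epithelial state, which has a pair of seeds that differ by 1 base.
miR-200a-3p (Mir200a): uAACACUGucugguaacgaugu
miR-141-3p (Mir141): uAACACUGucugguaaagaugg
miR-200b-3p (Mir200b): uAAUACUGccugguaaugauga
miR-200c-3p (Mir200c): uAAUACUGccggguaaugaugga

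The last set holds microRNAs known from tubule epithelium (miR-192, miR-194 and miR-204), together with miR-210, which is induced by low oxygen.
miR-194-5p (Mir194-1): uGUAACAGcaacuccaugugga
miR-192-5p (Mir192): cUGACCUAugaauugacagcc
miR-215-5p (Mir215): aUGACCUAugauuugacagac
miR-211-5p (Mir211): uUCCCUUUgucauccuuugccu
miR-204-5p (Mir204): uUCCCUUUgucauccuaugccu
miR-210-3p (Mir210): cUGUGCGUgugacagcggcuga

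The table held log2 values. For each array the background level was the 95th percentile of the olfactory receptor probe sets, at 5.40, 5.45 and 5.41 on arrays 1 to 3. A gene was called above background when its values minus these levels passed a one-sided moderated test in limma at a Benjamini-Hochberg adjusted p under 0.05 over all 19938 genes. In the table, 51.7% of genes had the same value on all 3 arrays (within 1e-06), so an SD of 0 is a property of the deposited values and not a measure of the spread between buds. The arrays' number limits the precision, since 3 buds were measured. In bulk RNA, fewer cells of a type and less RNA per cell cannot be told apart.

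Bud identity was visible in the same arrays. All 8 bud epithelium markers (among them Ret, Gata3 and Epcam) were called, and none of 4 metanephric mesenchyme markers or of 4 stroma markers was. Endothelium markers were called in 4 of 6 cases and were lowest on array 2, where their mean was 5.84 against 6.98 and 7.44 on arrays 1 and 3. Erythroid markers were called in 3 of 5 cases, with means of 6.93, 5.45 and 6.54 on the 3 arrays. Leukocyte markers were called in 2 of 5 cases, with Ptprc, Csf1r and Adgre1 below the level on every array and Cd68 and C1qc called. Both muscle markers (Myod1 and Actc1) and all 3 neuron and neural crest markers (Sox10, Isl1 and Th) were called too, with mean values by array of 5.70 to 5.83 and 5.87 to 5.90, so a call was not specific to genes of the bud. The part of these other cells in the values of the microRNA genes was not tested.

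Most microRNA genes lay below the background level. Of the 296, 75 (25.3%) were called, against 53.0% of all 19938 genes, and 221 were not. With stricter backgrounds the count of members fell to 46 (the 99th percentile of olfactory receptors) and to 21 (keratin-associated proteins and beta-defensins). With vomeronasal receptors it was 113, in a fit that also gave every gene the same SD. Over all genes these settings called 35.3%, 21.1% and 65.8%. The level was exceeded on all 3 arrays by 79 members, on 2 arrays by 14, on 1 array by 11 and on none by the others. The median of their mean log2 values was 4.30 (interquartile range 3.22 to 5.66), against 5.64 over all genes. Single members ranged from 2.31 to 10.11. The called genes had a median of 6.39 and the others one of 3.69. Identical values on all 3 arrays were found for 139 of the 296 (47%), and for 29 of the 75 called.

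**Figure D1:**
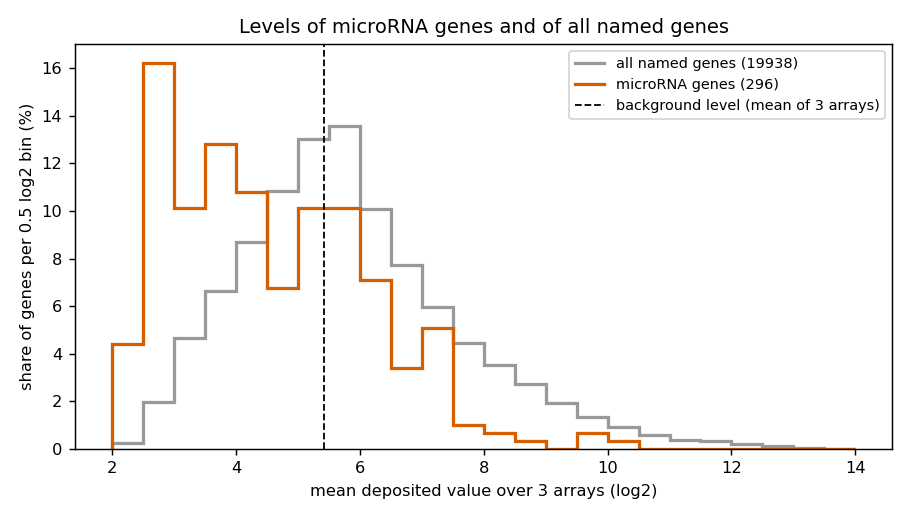
Share of genes (in percent, per bin of 0.5 log2) by mean deposited log2 value over 3 arrays, for the 296 microRNA genes (orange) and all 19938 named genes (grey), with the mean of the arrays' background levels as a dashed line. The microRNA genes peak to the left of the line, with a median of 4.30 against 5.64 for all genes, and few lie above 8.

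Some values were shared exactly between microRNA genes. Of their 298 probe sets, 138 (46.3%) had 3 values equal to those of another probe set in the table (to 5 decimals), compared with 35.5% of all 35557 probe sets. Of these, 8 genes stood together at 2.92, among them Mir126a, Mir215 and Mir154, and 83 probe sets of the table held that value. Mir93, Mir106b, Mir26b and Mir6516 stood together at 5.44. Levels of genes with tied values have no order among themselves, and why values repeat was not tested.

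The called genes with the highest mean values were Mir320, Mir598 and Mir692-1. Mir320, whose hairpin is known to be made without Drosha, stood at 10.05, 10.22 and 10.05 on arrays 1 to 3. Mir598 stood at 9.86, 10.04 and 9.84. Mir692-1 stood at 9.21, 9.93 and 9.77, and other copies of Mir692 share their probe sets with the ferritin gene Ftl1. In all 3 the lowest array was far above its background level. The next were Mir346 (8.44, 8.84 and 8.65), Mir328 (7.98, 8.13 and 8.09) and Mir667 (7.83, 8.09 and 8.09), the last from the imprinted Dlk1-Dio3 domain. Mir383, Mir185, Mir139, Mir3107 and Mir187 followed with means from 7.39 to 7.76. All of the 15 highest exceeded the level on all 3 arrays, at adjusted p values in limma of 3.5e-05 or less. Because each probe set has its own response, these values rank signals and not amounts of RNA.

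**Figure D2:**
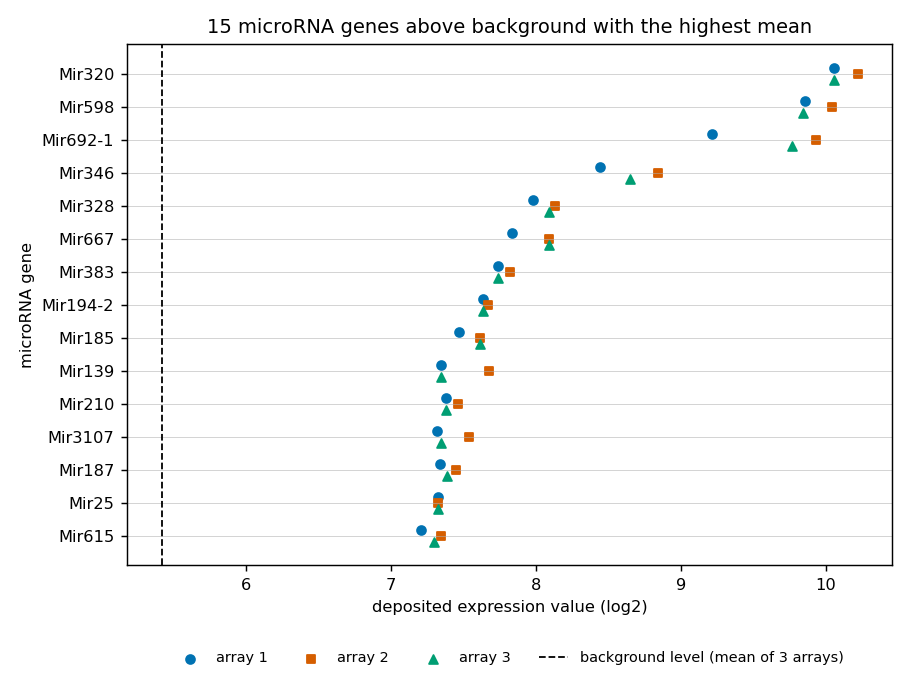
Deposited log2 value on each of 3 arrays (symbols) for the 15 called microRNA genes with the highest mean, with the mean background level as a dashed line. Every point lies to the right of the line; Mir320 reaches 10.22 on array 2, and for most genes the square of array 2 is at or near the right end.

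Among called microRNA genes the array with the highest deposited value was most often array 2. Of the 46 called members whose arrays differed, 31 (67.4%) had their single highest value on array 2, 4 on array 3 and 2 on array 1. These values were taken before the background level was subtracted. That level was itself highest on array 2 (5.45, against 5.40 and 5.41 on arrays 1 and 3), so a small excess there need not remain after subtraction. Array 1 was the single lowest for 22 of them (47.8%). Over the 6118 called genes of the whole table whose arrays differed, array 2 was the single highest for 20.2% and array 1 for 34.2%. The differences were small for most of these genes: Mir194-2 stood at 7.64, 7.67 and 7.64, and Mir210 at 7.38, 7.46 and 7.38. For Mir194-2 the gap (0.035 log2) was smaller than that between the levels, so array 2 was not its highest after subtraction. For Mir210 the gap was 0.084 log2, and array 2 stayed the highest. The endothelium markers and the erythroid markers Hba-x, Hbb-y and Hbb-bh1 were lowest on array 2, while the erythroid markers Alas2 and Slc4a1 did not vary. The part of these cells in the pattern was not tested.

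Differences between arrays were modest in most called genes, and 10 are named here for the largest. Mir669c, of a large repeated cluster on chromosome 2, spanned 6.18, 7.22 and 6.51 (SD 0.53, n = 3), and its neighbour Mir297b 6.58, 7.03 and 7.03. Mirlet7f-1 spanned 5.88, 6.65 and 5.78, and Mirlet7i 6.02, 6.69 and 6.42. In both let-7 genes array 2 was the highest and all 3 arrays exceeded the level. Mir341 (7.06, 7.45 and 7.26), Mir34b (5.78, 6.08 and 6.16) and Mir330 (5.52, 5.90 and 5.90) were lowest on array 1 (the last of these and Mir34b were not called without array 2), and Mir680-2 (7.55, 6.97 and 6.97) was highest there. The remaining pair were Mir692-1 and Mir346, given above.

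At the threshold the calls rested on small distances. Just inside were Mir181b-2 (5.82, 5.80 and 5.44, adjusted p = 0.0407 in limma), Mir365-2 (5.50 on every array, 0.0295) and Mir708 (5.50 on every array, 0.0277). Just outside were Mir122 (5.41, 5.77 and 5.77, adjusted p = 0.0519 in limma), Mir24-2 (5.43, 5.53 and 5.53, 0.0559) and Mirlet7e (5.40, 5.72 and 5.72, 0.0615). Mirlet7e and Mir122 had means above those of Mir365-2 and Mir708 but were lower on array 1 than on the other arrays. Without array 1, Mir181b-2, Mir365-2 and Mir708 lost their calls in limma and Mir122 and Mirlet7e gained them. Mir181b-2 was also lost without array 2, and Mir365-2 and Mir708 without array 3. In the fits without array 1 and without array 3, limma gave every gene the same SD (0.18). Mir365-2 and Mir708 thus changed call although their arrays were identical. Mir122 is the main microRNA of hepatocytes, and Mir708 lies in the Tenm4 gene.

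Genes that share a seed are given by their calls. Counting any listed arm, 64 seeds were shared by more than 1 measured gene; in 43 of these groups no gene was called, in 4 every gene was and 17 were mixed. With 25.3% of all members called, these counts are given as a description and say nothing particular to seeds. The let-7 and miR-98 genes had 2 of 10 called, Mirlet7i and Mirlet7f-1. The other 8 included Mirlet7e just outside the threshold and 7 with means from 3.32 to 4.44, such as Mir98 at 4.23 on every array. Lin28b and Lin28a, which block let-7 maturation, were both called, at 8.09 ± 0.10 and 6.42 ± 0.00 (SD, n = 3). Mirlet7f-1 lies within 10 kb of Mirlet7a-1 and Mirlet7d, which were not called, at 4.44 and 4.40.

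The miR-17/92 genes and their paralogs, known for promoting proliferation of progenitors, had 1 of 13 called, Mir25 at 7.32 on every array. Over all members 25.3% were called. Mir93 and Mir106b lie beside it on chromosome 5 inside Mcm7, on the same strand. Both stood at 5.44 on every array (adjusted p = 0.323 in limma, and 0.0325 without array 2). Only the level of array 2 (5.45) was above that value. Mcm7, a subunit of the replicative helicase, stood at 8.13, 7.81 and 7.93 and was called. The hairpins of the 3 neighbours, with the listed mature strand in capitals, show how close the genes are, and they span less than 1 kb.
Mir25, chr5:138165321-138165404, minus strand: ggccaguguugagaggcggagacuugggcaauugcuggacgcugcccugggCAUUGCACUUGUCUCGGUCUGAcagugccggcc
Mir93, chr5:138165523-138165610, minus strand: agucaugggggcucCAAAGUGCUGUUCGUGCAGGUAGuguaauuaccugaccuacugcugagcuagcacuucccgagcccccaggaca
Mir106b, chr5:138165737-138165818, minus strand: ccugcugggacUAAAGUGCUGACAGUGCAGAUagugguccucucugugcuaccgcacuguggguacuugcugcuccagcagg

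Their GC contents were 63.1%, 55.7% and 57.3%. In the cluster on chromosome 14, Mir17 and Mir18 were high on array 3 only, at 4.34, 4.62 and 6.17 and at 3.90, 4.64 and 6.82. Mir20a stood at 3.35, 4.76 and 3.35, Mir19a at 2.47, 3.05 and 2.47, and Mir19b-1 at 3.58 on every array. So 5 genes of 1 primary transcript were not parallel between the arrays. The X-linked copies Mir106a, Mir20b, Mir19b-2, Mir92-2 and Mir363 had means from 2.74 to 4.79. Outside this family list, Mir92b, which shares the seed of Mir25, was called at 7.16, 7.41 and 7.25.

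None of the 4 measured miR-200 genes was called in these epithelial cells with the level used; Mir200a was in limma against vomeronasal receptors or the 90th percentile of olfactory receptors, as were Mir204, Mir196a-1 and Mir196b of the groups below. Mir200a stood at 5.14 on every array, Mir200c at 4.86, 4.86 and 5.11, Mir200b at 4.11, 4.15 and 4.11, and Mir141 at 3.76 on every array. Epcam and Cdh1, epithelial adhesion genes, were called in the same cells at 9.27 ± 0.00 and 7.62 ± 0.16 (SD, n = 3). All 4 miR-200 genes lay below the level used on every array. That says that these probe sets gave no signal over that level and not that the microRNAs were absent. Of all 296 members 74.7% were not called.

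Of the 10 measured genes from the list of kidney and tubule microRNAs, 4 were called, beside 25.3% of all members. With so few genes that count is a description. Mir194-2 stood at 7.64, 7.67 and 7.64 and Mir194-1 at 6.35 on every array, while their respective neighbours Mir192 and Mir215 stood at 3.69 and 2.92 on every array. Both pairs are known to be transcribed together. The hairpins of the chromosome 19 pair, with GC contents of 60.5% and 50.6%, lie close together.
Mir194-2, chr19:6264643-6264728, plus strand: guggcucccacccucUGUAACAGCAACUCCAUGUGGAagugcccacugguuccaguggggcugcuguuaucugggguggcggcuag
Mir192, chr19:6264844-6264932, plus strand: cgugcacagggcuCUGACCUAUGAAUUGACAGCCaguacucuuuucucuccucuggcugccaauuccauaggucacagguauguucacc

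Mir210 was called at 7.38, 7.46 and 7.38, and its hairpin was among the richest in G and C, at 69.1%.
Mir210, chr7:141221384-141221493, minus strand: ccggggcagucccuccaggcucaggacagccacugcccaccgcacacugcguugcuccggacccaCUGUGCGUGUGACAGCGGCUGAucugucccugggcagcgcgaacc

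Mir211 was called at 6.46 on every array, although its host Trpm1 was not, and Mir204, which has the same seed, stood at 5.17 on every array. Mir216a, Mir216b and Mir217, known from pancreas, had means of 3.89, 3.66 and 2.78.

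In the Hox clusters 1 of 6 genes was called, Mir615 at 7.21, 7.34 and 7.30. Over all members 25.3% were called, and the counts of this paragraph are a description. Mir10b, inside Hoxd4, stood at 2.80, 2.89 and 2.80, whereas Hoxd4 stood at 7.23 on every array and was called. Mir10a had a mean of 2.58, and the miR-196 genes means of 3.61, 5.15 and 5.20. The miR-30 family, abundant in kidney epithelium, had 1 of 6 called: Mir30d at 6.55 on every array, while its neighbour Mir30b stood at 3.32. The miR-34 and miR-449 group, known from multiciliated cells, had 2 of 5 called, Mir34b and Mir449a (5.81 on every array), while Mir34a, Mir34c and Mir449c were not. Mir449c, at 5.45 on every array to 2 decimals, was called in limma without array 2.

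Genes known from other lineages were mostly not called. Of all 296 members 74.7% were not called either, so these small counts are a description and say nothing particular to a lineage. None of 7 muscle genes was called, while the muscle markers Myod1 and Actc1 were. None of 5 genes of the miR-302 cluster, known from pluripotent cells, was called either. Of 7 neural genes only Mir219a-1 was called, at 5.78 on every array, while the miR-9 and miR-124 genes were not; the markers Sox10, Isl1 and Th were. Mir219a-1 lost its call at the 99th percentile of the background set, and Mir9-1 and Mir124a-2 gained one in limma with vomeronasal receptors or the 90th percentile. Of 5 blood cell genes only Mir150, known from lymphocytes, was called, at 6.77, 6.82 and 6.77. The erythroid Mir144 and Mir451a stood at 2.45, 2.47 and 2.47 and at 3.61 on every array. Mir142, a marker of leukocytes, stood at 3.64 on every array, and of the leukocyte markers Ptprc, Csf1r and Adgre1 were not called and Cd68 and C1qc were.

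The endothelial Mir126a stood at 2.92 on every array, the value it shared with 7 other members. Its host Egfl7 was called, at 7.04 ± 0.21 (SD, n = 3). Egfl7 was lowest on array 2, as were the endothelium markers Cdh5 (8.22, 5.90 and 8.07) and Emcn (8.37, 6.73 and 9.55), while Mir126a did not vary. The host was above its level, and the precursor probe set inside it was not.

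Among imprinted microRNA genes, Mir483, inside Igf2, was called at 7.22, 7.31 and 7.24, and Mir335, inside Mest, at 5.997 on every array; both hosts, which are expressed from the paternal copy, were called. In the Dlk1-Dio3 domain of chromosome 12, 9 of 40 (22.5%) were called, near the 25.3% of all members: Mir667, Mir341, Mir673, Mir666, Mir679, Mir134, Mir540, Mir668 and Mir431, the last at 5.56 on every array. The domain's median was 3.63 and its lowest mean 2.44. Hairpins were listed for 8 of its called genes, with a median GC content of 60.5%, and for 31 of the others, with 42.3%. On the X chromosome 3 of 39 genes were called (7.69%), against 72 of 257 (28%) elsewhere, and the median GC content was 43.1% on X and 47.8% elsewhere.

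GC content moved with level over all members. Over the 258 genes with a listed hairpin, the mean log2 value and the percentage of G and C in the hairpin had a Pearson's r of 0.74 and a Spearman's rho of 0.75. These points share the 3 arrays and the labelling, neighbouring genes share transcripts, and the r is a description across genes. It was 0.75 in the 126 genes with identical arrays, 0.77 in the 132 others, 0.69 in the 126 with no neighbouring member within 10 kb and 0.58 in the 85 with a measured host on the same strand. With hairpin length r was 0.20.

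The share called was higher at each step of GC content. Up to 45% GC it was 3 of 97 (3.09%), from 45 to 50% 5 of 59 (8.47%), from 50 to 55% 13 of 49 (26.5%), from 55 to 60% 15 of 29 (51.7%) and above 60% 20 of 24 (83.3%). Called genes had a median GC content of 57.8% and the others 45.4%. Above 60% the genes not called were Mirlet7e, Mir24-2, Mir125a and Mir152. Up to 45% the called genes were Mirlet7f-1, Mir335 and Mir181b-2. All of these exceptions, other than those of the families and the threshold above, were named after their values were seen. Whether base composition of the probes takes part in the signal was not tested, because the probes' sequences were not used here.

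**Figure D3:**
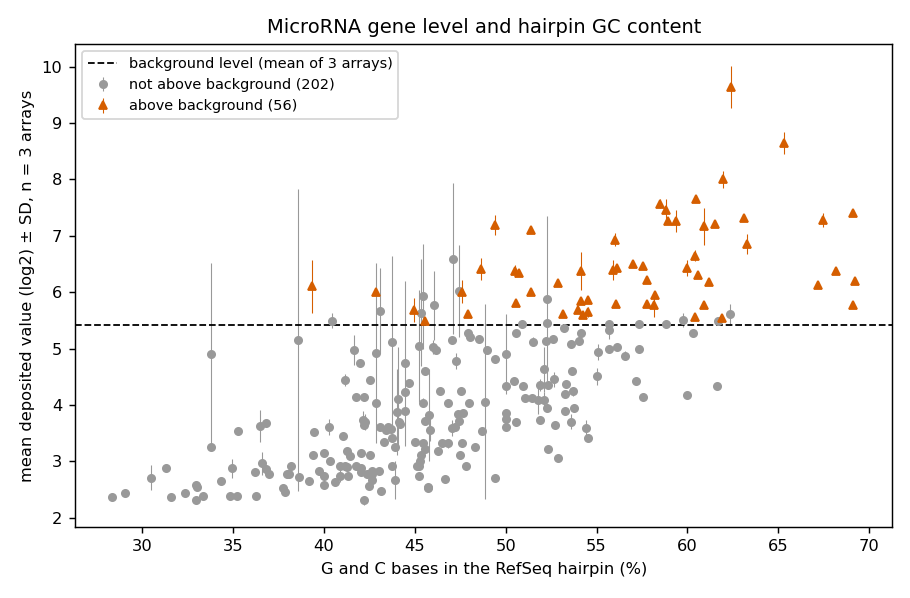
Mean deposited log2 value (± SD over 3 arrays) of 258 microRNA genes against the percentage of G and C in the RefSeq hairpin, for genes above background (orange triangles, 56) and the others (grey circles, 202), with the mean background level as a dashed line. Values rise with GC content (r = 0.74), most genes above 60% GC are orange, and the long grey error bars belong to genes that differ by over 1 log2 between arrays.

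Neighbouring members, which often share a transcript, are given by their calls as well. There were 47 groups of members within 10 kb of each other, with 147 genes. In 28 groups no member was called, in 2 every member was (Mir181c with Mir181d, and Mir195a with Mir497) and 17 were mixed. With 25.3% of all members called, these counts are a description and say nothing particular to neighbours. Of the 14 mixed groups with hairpins listed on both sides, the called members had the higher mean GC content in 10, and every called member was above every other in 9. The let-7 group of chromosome 13 and the group of Mir23a (6.87, 7.07 and 6.87, called), Mir27a and Mir24-2 were among the exceptions: Mir23a has 56% GC, less than Mir27a with 59.8% and Mir24-2 with 61.7%.

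Members are also given by the call of the gene they lie in. Of 64 genes with a listed hairpin inside a called gene of the same strand, 10 (15.6%) were called; of 21 inside a gene that was not called, 7 (33.3%); and of 173 with no measured host on the same strand, 39 (22.5%). Over all 258 genes with a listed hairpin, 56 were called. The 64 genes lay in 51 hosts and the 21 in 18, so genes of 1 host are not separate cases. These counts are a description. For hairpins of up to 50% GC, 1 of 33 was called with a called host and 1 of 11 with another host. For richer hairpins the counts were 9 of 31 and 6 of 10. Only gene bounds were used to place hairpins, so exon and intron were not told apart.

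Differences of over 1 log2 between buds are given next, with no test, since each array is 1 bud. Of the 296, 22 (7.43%) differed by more than 1 log2 between the highest and lowest array, against 2.37% of all genes. Without array 3 the count was 12 (4.05%), against 1.21% of all genes. A gap over 2 arrays cannot exceed that over 3, so no count with an array left out could be higher. Only 1 of the 22, Mir669c, was called; the other 21 are named after their values were seen. Mir32 had the largest gap, at 3.55, 3.66 and 8.25, high on array 3 alone. Its host Tmem245 stood at 6.49 on every array. Its hairpin, at 38.6% GC, is shown because no other member moved as far.
Mir32, chr4:56895229-56895298, minus strand: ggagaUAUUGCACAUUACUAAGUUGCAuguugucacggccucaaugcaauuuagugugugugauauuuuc

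Several others were high on 1 array alone. Mir1a-2, known from muscle, stood at 3.23, 3.35 and 6.49, and Mir301 at 3.02, 3.11 and 6.06, both high on array 3. Mir325 (6.75, 3.87 and 4.14), Mir695 (7.57, 5.17 and 4.91) and Mir103-2 (6.70, 4.88 and 5.33) were high on array 1. Mir107, with the seed of Mir103-2, stood at 8.15, 5.92 and 5.72 and was above the level on all arrays, but its spread (SD 1.34, n = 3) left it uncalled at an adjusted p of 0.108 in limma. Mir186 (3.08, 6.15 and 5.48) and Mir15a (5.32, 8.49 and 7.21) were low on array 1. Mir505 stood at 8.16, 6.85 and 5.17, and Mir155, known from activated immune cells, at 5.08, 6.53 and 5.41. Calls among these genes changed when an array was left out. In the fits without array 1 and without array 3, limma gave every gene the same SD (0.18). A gene's own spread did not enter there, so the part of single arrays in these changes cannot be told from that of the fit. Mir15a, Mir505, Mir107, Mir677, Mir181a-2 and Mir155 were called in limma without array 1 and also without array 3, Mir32, Mir18 and Mir186 without array 1, and Mir218-1, Mir695 and Mir103-2 without array 3.

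These genes followed no single array. Of the 22, 6 were highest on array 1, 7 on array 2 and 9 on array 3, while 14 were lowest on array 1. Of these 22, 10 exceeded the background level on 1 array, 7 on 2 arrays, 2 on all 3 and 3 on none. A measured host on the same strand was found for 11, of which 10 were called. All 11 hosts differed by 1 log2 or less between arrays. Only 2.37% of all genes differed by more. Of all members with such a host, 64 had a called host and 21 another, so these counts are a description. Pank1, host of Mir107, stood at 6.88, 6.67 and 6.89, and Zranb2, host of Mir186, at 10.37, 10.76 and 10.17. The median GC content of the 18 with a listed hairpin was 45.3%. Over all members the arrays correlated at r of 0.96 (arrays 1 and 2), 0.92 (1 and 3) and 0.95 (2 and 3), against 0.99 for each pair over all genes.

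**Figure D4:**
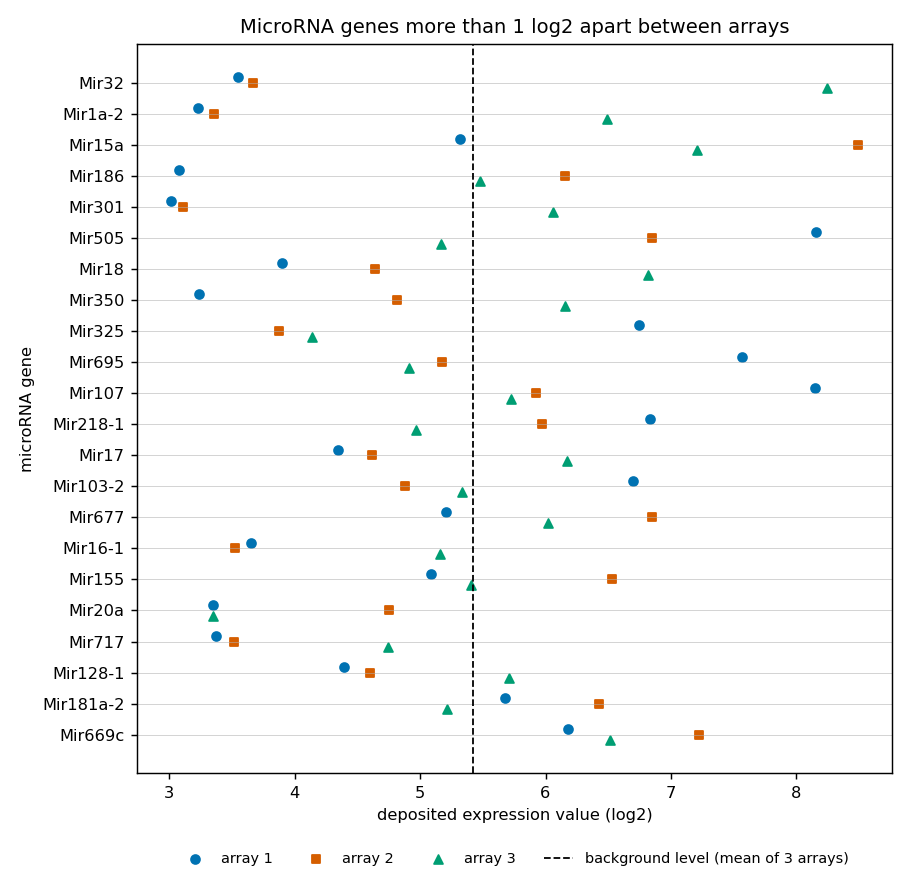
Deposited log2 value on each of 3 arrays for the 22 microRNA genes whose highest and lowest arrays differ by over 1 log2, ordered by that difference, with the mean background level as a dashed line. Mir32, at the top, runs from 3.55 to 8.25, and the array that stands apart changes from gene to gene.

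The genes that make and use microRNAs were mostly called. Of 29 measured genes of this pathway, 26 were called, against 53.0% of all genes, and 16 were against the stricter set of beta-defensins and keratin-associated proteins; their list had been drawn up with earlier results known. Of the nuclear steps, Drosha, which cuts the primary transcript, stood at 8.33 on every array and its partner Dgcr8 at 8.28, 8.50 and 8.50. Their helicase cofactors Ddx5 and Ddx17 stood at 11.50 ± 0.00 and 10.33 ± 0.09 (SD, n = 3). Srrt, which links the cap to processing, stood at 9.49, 9.17 and 9.28, and the exporter Xpo5 at 7.28 on every array. The genes not called were Ago3 (5.27 on every array), Ago4 (4.42 on every array) and Dis3l2, a nuclease that degrades uridylated let-7 precursors, at 6.08, 5.57 and 5.64 (adjusted p = 0.0571 in limma, and 0.00218 without array 3). Ago3 and Dis3l2 were both called in limma against vomeronasal receptors or the 90th percentile. The fits with vomeronasal receptors and without array 3 gave every gene the same SD. Ago1 was called at 6.72 on every array and Ago2, the Argonaute that can cut its targets, at 7.03, 6.94 and 7.03.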

How the data were processed

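Expression was measured on 3 Affymetrix arrays of 1 group. The deposited table holds 1 value per probe set and array. Per the submitters' processing notes the software was Affymetrix Expression Console, and its normalization is not given in the sources used. The deposited values are log2 values, inferred from their range, with array medians of 5.47, 5.50 and 5.48. Genes came from the platform annotation: of 35557 probe sets, 21789 carried 1 symbol, 1621 several and 12147 none, and only the first kind was used, averaged per gene. RefSeq (GRCm38.p6) gave gene identifiers for all 296 members, and hairpins for 258.

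Each array's background level was subtracted and genes were tested with limma 3.58.1 in R 4.3.3 (lmFit and eBayes, one-sided, Benjamini-Hochberg). The prior SD was 0.050 log2, so a gene with identical arrays could be called at a small distance. In the fits without array 1, without array 3 and with vomeronasal receptors it was 0.18, 0.18 and 0.21. There the prior carried all the weight, so every gene had the same SD and its own spread did not enter. Without array 2 the prior SD was 0.014 and with the 90th percentile 0.018, so changed calls in those fits come with a changed prior too. The fit was tested on simulated data. No true value there was set close to the level, so that test does not bear on calls at small distances. Hosts were RefSeq genes of the same strand, and neighbours lay within 10 kb.

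Members named singly were the 15 called with the highest mean, the 10 called with the largest difference between arrays, 3 each side of the threshold, and listed families. The pathway and marker lists, like the members, were chosen with earlier results of these data known. Of 30 listed pathway genes 29 were measured, and the remaining gene was not analysed here. Alternatives were other background sets and percentiles, quantile normalization, a floor on the SD, the probe set with the highest mean, a filter on low genes, and leaving out each array. The arrays are separate buds. For the called members with identical arrays, the p-values rest on the prior SD and the background levels and not on a spread between buds.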

Additional observations from a re-analysis of the deposited data

How the results depend on the processing

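The share called depended on the background set. With the 99th percentile 46 of the 296 microRNA genes were called, 21 with beta-defensins and keratin-associated proteins in place of olfactory receptors, and 113 with vomeronasal receptors. Over all genes the first of these settings called 7034 and the second 4210, and the second called 16 of 29 pathway genes. In every setting the share of microRNA genes called was below that of all genes. The 21 genes called with the keratin-associated set were called in every setting tried. The 90th percentile added 24 calls and vomeronasal receptors 38, with none of the 75 lost. Both levels lie below the one used, so calls could hardly be lost there. Over all genes these settings called 63.7% and 65.8%, against 33.4% and 38.2% of the members. With vomeronasal receptors the fit also gave every gene the same SD (0.21), so the 38 do not come from the lower level alone. Among them was Mir32, at 3.55, 3.66 and 8.25 on arrays 1 to 3.

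At the 99th percentile 29 of the 75 calls were lost, and with the keratin-associated set 54. Only the 105 members followed singly are given here: the ranked genes, those at the threshold and the listed families. Most genes of the Dlk1-Dio3 domain were not among them. Those of the 105 that fell below the level were, at the 99th percentile, Mir34b (-0.057 log2), Mir335 (-0.067), Mir449a (-0.25), Mir219a-1 (-0.29), Mir330 (-0.29), Mir181b-2 (-0.38), Mir708 (-0.56) and Mir365-2 (-0.57). Against the keratin-associated set they were Mir150 (-0.077), Mir669c (-0.23), Mir30d (-0.32), Mir211 (-0.40), Mirlet7i (-0.49), Mir194-1 (-0.52), Mirlet7f-1 (-0.76), Mir34b (-0.86), Mir335 (-0.87), Mir449a (-1.05), Mir219a-1 (-1.09), Mir330 (-1.09), Mir181b-2 (-1.18), Mir365-2 (-1.37) and Mir708 (-1.37).

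Leaving out each array gave 75 to 76 called microRNA genes, of which 65 to 71 were among the 75. The fits without array 1 and without array 3 gave every gene the same SD, so changed calls there come with a changed fit. Without array 2 the prior SD fell from 0.050 to 0.014 log2, so changed calls there come with a changed fit as well. Leaving out each array gave 12 to 17 microRNA genes over 1 log2 apart, the lowest count being without array 3. A gap over 2 arrays cannot exceed that over 3, so these counts could only fall from 22. Without arrays 1, 2 and 3 in turn the shares were 5.07%, 5.74% and 4.05%, against 1.12%, 1.32% and 1.21% of all genes. No paired analysis was possible because there was 1 group. The share called was higher above 55% GC than up to 50% in every setting, at 66% and 5.13% with the level used. Values near the level, the low number of arrays and signal over background limit every call.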

Other observations

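Some microRNA symbols share a probe set with another gene and were therefore no members. Mirlet7b, with Lncppara, stood at 6.87, 7.36 and 7.26. Mir503 and Mir351, with C430049B03Rik, stood at 6.04 and 5.78 on every array, and Mir322, of the same symbol, at 3.85. The probe set of Mir92-1 and its host Mir17hg stood at 5.65, 7.31 and 5.35, high on array 2, where Mir17 and Mir18 of that cluster were not. Mir429, the miR-200 gene not given above, shared a probe set with Gm13648 at 2.39 on every array. Mir22 and Mir22hg stood at 4.81, 4.81 and 5.00, and Mir675, with Supt6, at 9.40, 9.03 and 10.11.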
